A study of Mus musculus with 9 samples.

Results

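The comparison described here set sublingual glands of mice taken 14 days after a 10 Gy radiation dose against sublingual glands of mice that received no radiation. The sublingual gland is a small salivary gland whose acini secrete mostly mucus. The comparison used 6 of the 9 RNA-seq libraries of the series, chosen by their labelled group: 3 controls with no radiation (control 1 to control 3) and 3 libraries of the group at 14 days (day 14 library 1 to library 3). The other 3 libraries were taken 7 days after the same dose and are used here only where a day 14 value is set beside them. All groups were labelled WT and nothing else was given for strain, age or agent. RNA came from tissue sections of the gland, so each library is a mixture of acini, ducts, vessels, nerves and immune cells. Whether the 3 libraries of a group are 3 animals is not stated in the labels; the p-values therefore rest on the variation among these libraries, part of which may be technical.

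Ionizing radiation breaks DNA, and the kinases Atm and Atr relay the damage to p53, which switches on genes that hold the cell cycle, repair or death. Salivary acinar cells divide rarely yet are known for losing output after radiotherapy. Irradiated tissue can also show interferon signalling, in which secreted interferons raise a set of antiviral genes, and can recruit macrophages.

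Of 15348 genes with enough counts to test, 270 (1.76%) passed an adjusted p of 0.05 between day 14 and the controls. This share is the background against which the gene groups below can be read. At day 14, 173 of these genes were higher (1.13% of those tested) and 97 were lower (0.632%), with median log2 fold changes of 0.63 and -0.54. In 35 of them the change was at least 1 on the log2 scale. Other tools called more genes: DESeq2 8.85% of those it adjusted and limma-voom 10.9%, which are the backgrounds for the counts given by these tools below. The 3 day 14 values lay wholly above the 3 control values in 1910 genes (12.4%) and wholly below them in 1638 (10.7%). Protein-coding genes made up 259 of the 270.

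Total counts ran from 15962399 to 19441239 over the series. Control 3 stood apart from the other controls. On the first principal component of the 6 libraries, which held 30.1% of the variance, controls 1, 2 and 3 lay at -43.9, -28.8 and -2.74, and the day 14 libraries between 24.02 and 26.1. In 48.0% of the tested genes control 3 was the control nearest to the day 14 mean, against 22.2% for control 1 and 29.7% for control 2. Acinar products of the mucous gland, Muc19 and the Dcpp family described below, were abundant in every library. The 20 most abundant genes took 37.1% to 38.6% of counts in controls and 32.7% to 34.3% at day 14.

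The number of called genes depended on single libraries more than on any choice of scaling. It was 1937 without control 3, 13 without control 1 and 15 without control 2. Leaving out day 14 library 1, 2 or 3 gave 71, 36 and 31 genes. These fits also have 1 library fewer than those that change the scaling. At an unadjusted p under 0.05 the counts moved less: 3271 genes passed with all libraries. Without controls 1, 2 and 3 they were 2126, 2680 and 4357. Without day 14 libraries 1, 2 and 3 they were 2968, 2647 and 2642. Every one of the 270 genes kept its direction in all 6 of these fits. In 269 of them the day 14 and control values did not overlap, so omitting 1 library could hardly turn it. Of the 270 genes, 195 were called in 1 of the 6 fits and 48 in 2. Only 6 genes were called in all 6: Cdkn1a, Eda2r, Ccng1, Ephx1, Relch and Lrpprc. Col4a1, Mpeg1 and Rnf150 lost the call without control 1 alone, and Derl3 without day 14 library 3 alone. These genes are named by that count, after their values were seen. The plot of calls by left-out library shows both directions.

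**Figure D1:**
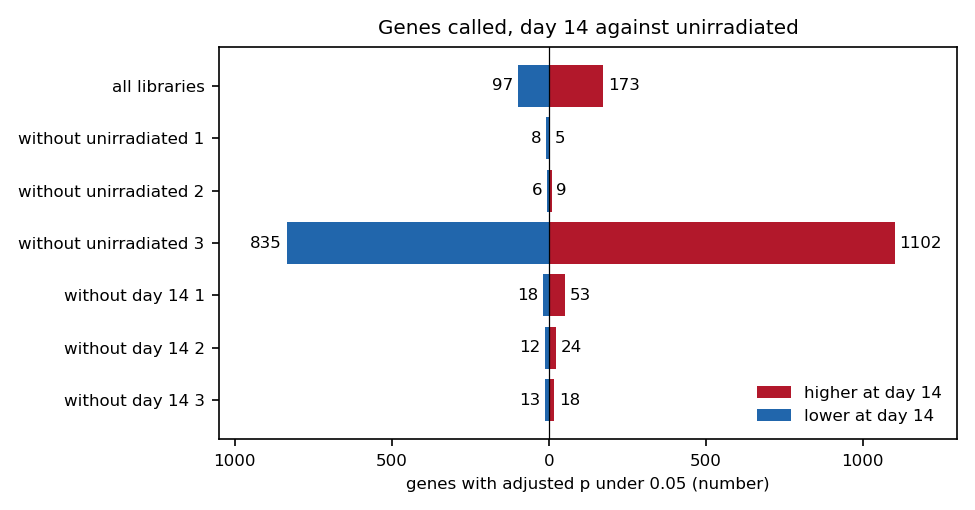
Number of genes with adjusted p under 0.05 between day 14 and the unirradiated controls (x axis), higher at day 14 to the right and lower to the left, with all libraries and with each library of the comparison left out in turn (y axis). Without control 3 the bars reach 1102 and 835, and without control 1 they reach 5 and 8.

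Of the 6 genes called in all 6 omissions, 4 are on the list of p53 targets. Cdkn1a encodes p21, the inhibitor that stops the cell cycle; it lies on chromosome 17 (29090976 to 29100727, plus strand, mm10). It measured 5.31, 6.004 and 5.71 CPM (read counts scaled to library size and composition) in the controls and 16.4, 12.7 and 18.8 at day 14. The lowest day 14 library was above the highest control by more than the whole range of the controls. Its log2 fold change was 1.49 ± 0.18 (SE) with an adjusted p of 0.00091, and stayed between 1.36 and 1.61 whichever library was left out.

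Eda2r, a receptor of the tumour necrosis factor receptor family (chromosome X, 97333840 to 97377216, minus strand), measured 2.32, 3.37 and 3.22 CPM in controls and 8.24, 7.33 and 8.51 at day 14. Its log2 fold change was 1.43 ± 0.21 (adjusted p = 0.0048). Ccng1, which encodes cyclin G1 (chromosome 11, 40748552 to 40755311, minus strand), went from 63.5, 90.7 and 93.7 CPM to 137, 153 and 143, a log2 fold change of 0.80 ± 0.12 (adjusted p = 0.0048). Control 1 was low for Ccng1, and without it the log2 fold change was 0.63. Ephx1, the microsomal epoxide hydrolase (chromosome 1, 180976210 to 181020904, minus strand), lay at 66.2, 68.9 and 67.7 CPM in controls and 117, 96.6 and 105 at day 14. Its log2 fold change was 0.65 ± 0.09 (adjusted p = 0.0048), and its day 7 mean of 171 CPM was higher than that of day 14 (log2 difference of day 14 minus day 7 -0.69, adjusted p = 0.00015).

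Of the 43 tested members of the p53 list 4 rose (the genes just named), 1 fell and 38 did not pass; the list's median log2 fold change was 0.26, against 0.01 over all tested genes. In 13 members the groups did not overlap upward and in 3 downward (12.4% and 10.7% of all genes). Mdm2, the ligase that degrades p53 and is itself a p53 target, measured 36.9 ± 3.71 CPM in controls and 36.3 ± 3.31 at day 14 (SD, n = 3), a log2 fold change of -0.02 ± 0.11 (adjusted p = 0.93). Trp53 itself was at 29.3 ± 2.30 and 22.6 ± 1.83 CPM (log2 fold change -0.38 ± 0.12, adjusted p = 0.087). Gdf15, a stress-secreted factor, measured 6.11 ± 0.97 CPM in controls and 2.74 ± 1.58 at day 14 (adjusted p = 0.10).

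The member that fell was Sesn2, sestrin 2, which restrains mTORC1 and is a target of both p53 and Atf4. It measured 67.0, 32.9 and 61.0 CPM in controls and 22.5, 17.7 and 14.8 at day 14. No day 14 library reached the lowest control, control 2, although the controls differed among themselves. Its log2 fold change was -1.55 ± 0.26 (adjusted p = 0.033). The call was lost without control 1 (-1.37, adjusted p = 0.13), without day 14 library 2 (-1.55, 0.12) and without day 14 library 3 (-1.42, 0.080).

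Relch and Lrpprc were named after their values were seen, because they held the call in every fit. Relch, which encodes a protein of cholesterol transport from recycling endosomes (chromosome 1, 105663861 to 105755191, plus strand), measured 14.9, 13.8 and 14.3 CPM in controls and 24.5, 24.3 and 27.3 at day 14 (log2 fold change 0.82 ± 0.12, adjusted p = 0.0052). Lrpprc, which binds and stabilises mitochondrial messenger RNAs (chromosome 17, 84705247 to 84790789, minus strand), measured 108, 93.6 and 100.01 CPM in controls and 55.3, 61.5 and 63.2 at day 14. It fell by 0.75 ± 0.11 on the log2 scale (adjusted p = 0.0048), and was the only gene called lower under every omission. Cdkn1a and Lrpprc overlap genes on the other strand, whose reads cannot be told apart here because strand use in counting was not given. The same holds for 44 of the 130 genes named in the report, Cdkn1a and Lrpprc among them.

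**Figure D2:**
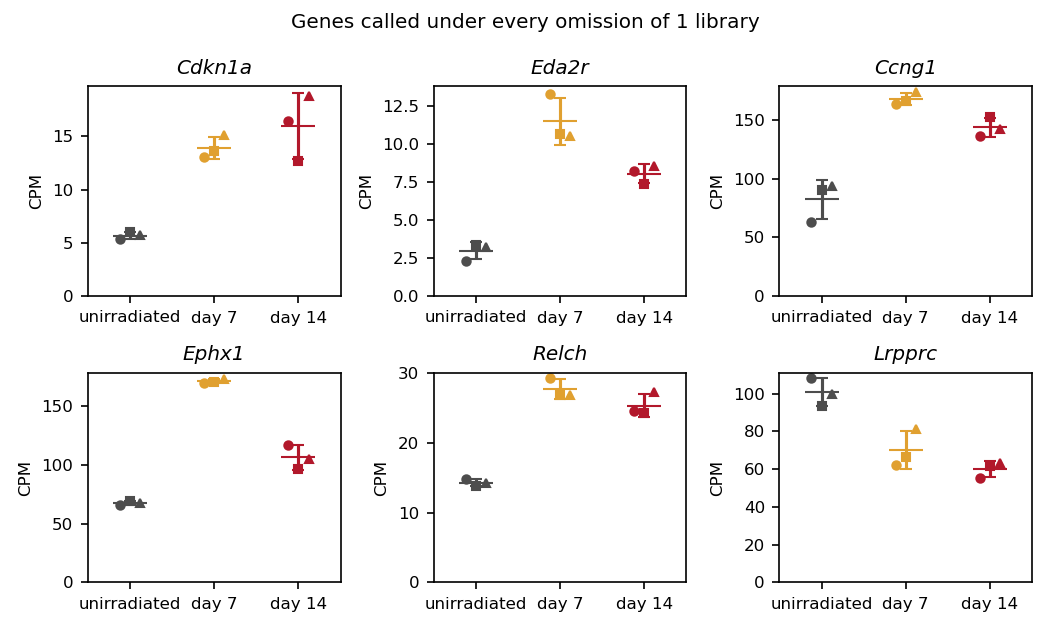
CPM of the 6 genes called under every omission of 1 library (y axis, from 0) in unirradiated, day 7 and day 14 glands (x axis); each symbol is a library (circle 1, square 2, triangle 3), and dash and bar are the mean and SD of 3. In each gene the unirradiated and day 14 libraries do not overlap; Cdkn1a lies between 5.31 and 6.004 CPM in controls and between 12.7 and 18.8 at day 14.

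Among genes of DNA damage signalling and repair, 2 of 54 tested rose, none fell, and the median log2 fold change was 0.07. Both were the apical kinases: Atm measured 5.61, 8.09 and 11.7 CPM in controls and 17.6, 21.99 and 15.8 at day 14 (log2 fold change 1.12 ± 0.23, adjusted p = 0.032). Atr measured 6.83, 6.95 and 7.75 CPM against 12.9, 11.3 and 13.004 (0.79 ± 0.17, adjusted p = 0.033). Each kept the call in 1 of the 6 omissions, that of control 3; over the omissions their adjusted p reached 0.12 and 0.13. After a correction for gene length and GC content Atr was at 0.43 (adjusted p = 0.21) and Atm at 0.86 (adjusted p = 0.026).

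Some interferon-inducible genes rose at day 14. Of 43 tested members 7 rose and none fell (7 of 43 against 1.13% of all genes called higher), the median log2 fold change was 0.85, and in 22 members every day 14 library was above every control. The 7 were Trim30a, Cmpk2, Zbp1, Gbp3, Ifih1, Bst2 and Irgm1. Averaged over the list on the log2(CPM + 0.5) scale, day 14 libraries 1, 2 and 3 lay 1.20, 0.29 and 0.87 above the control mean, and the controls between -0.12 and 0.16. Day 14 library 2 was thus the lowest of its group, though still above each control.

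Trim30a, an interferon-inducible tripartite-motif protein, measured 1.40, 1.28 and 2.43 CPM in controls and 6.49, 5.26 and 5.15 at day 14, the largest log2 fold change of the list's called genes (1.71 ± 0.32, adjusted p = 0.019). Ifih1, which encodes the cytosolic RNA sensor MDA5, measured 11.3, 10.3 and 14.6 CPM against 21.2, 23.6 and 22.6 (0.89 ± 0.16, adjusted p = 0.016). Bst2, which encodes tetherin, a protein that holds budding virus at the cell surface, measured 20.4, 23.4 and 29.3 CPM against 49.9, 39.2 and 36.9 (0.78 ± 0.16, adjusted p = 0.030). For these genes control 3 was the highest control and lay below every day 14 library.

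Others varied more among the day 14 libraries. Gbp3, an interferon-inducible guanylate-binding protein, measured 6.40, 6.41 and 5.996 CPM in controls and 18.2, 8.18 and 11.97 at day 14 (1.02 ± 0.24, adjusted p = 0.035). Zbp1, a sensor of Z-form nucleic acids that can start necroptosis, measured 3.96, 3.71 and 4.81 CPM against 13.03, 6.43 and 8.56 (1.16 ± 0.28, adjusted p = 0.039). In both, library 1 was the highest and library 2 the lowest. Cmpk2, a mitochondrial nucleotide kinase, rose by 1.33 ± 0.32 (adjusted p = 0.039) and Irgm1, an immunity-related GTPase, by 0.55 ± 0.14 (adjusted p = 0.046; named after its values were seen) on the log2 scale.

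Cmpk2, Zbp1, Bst2 and Irgm1 kept the call only without control 3, Gbp3 and Trim30a also without day 14 library 2, and Ifih1 also without day 14 library 1. The number of members called higher was 18 without control 3, where 1 was lower, and 0 without control 1, control 2 or day 14 library 3. It was 1 without day 14 library 1 and 7 without day 14 library 2. The shares of all tested genes called higher were 6.99% without control 3, 0.0316% and 0.0568% without controls 1 and 2, and 0.336%, 0.152% and 0.114% without day 14 libraries 1, 2 and 3. The median log2 fold change of the list stayed between 0.62 and 0.98 over these fits. Set beside day 7, from which day 14 libraries differ in a test that shares those libraries, 10 members were higher at day 14 and none lower (3.72% of all genes were higher and 2.87% lower). Bst2 was at 13.7 CPM at day 7 and 42.0 at day 14 (log2 difference 1.62, adjusted p = 1.7e-05).

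The promoters of these genes often held the letters of the interferon-stimulated response element, a site through which interferon signalling switches on its target genes. In RefSeq promoter windows of 300 bases (250 before to 50 after the start, GRCm38.p6), the core GAAANNGAAA (N is any base, both strands searched, matches may overlap) was present in 18 of the 31 tested list members with a window. Over all genes with a window it was present in 3.99%, and over the tested ones in 3.81%. It was in 12 of the 138 called higher genes with a window (8.70%) and in 2 of the 79 called lower (2.53%). Of those 12, 5 were members of the interferon list itself, which had 6 called higher genes with a window. This motif was chosen after the values were seen, and a match is no evidence of binding. Windows are shown for 4 interferon genes that rose and for B2m, the MHC class I light chain described next, because each holds the core; capitals mark it, written on the gene's strand from 5′ to 3′.
Bst2 (chr8:71537423-71537722, minus strand): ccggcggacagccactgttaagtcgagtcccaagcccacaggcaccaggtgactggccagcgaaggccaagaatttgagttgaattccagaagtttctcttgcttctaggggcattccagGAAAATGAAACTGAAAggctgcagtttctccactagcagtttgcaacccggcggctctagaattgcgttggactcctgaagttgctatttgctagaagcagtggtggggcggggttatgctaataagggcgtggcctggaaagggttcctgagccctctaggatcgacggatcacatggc
Ifih1 (chr2:62646206-62646505, minus strand): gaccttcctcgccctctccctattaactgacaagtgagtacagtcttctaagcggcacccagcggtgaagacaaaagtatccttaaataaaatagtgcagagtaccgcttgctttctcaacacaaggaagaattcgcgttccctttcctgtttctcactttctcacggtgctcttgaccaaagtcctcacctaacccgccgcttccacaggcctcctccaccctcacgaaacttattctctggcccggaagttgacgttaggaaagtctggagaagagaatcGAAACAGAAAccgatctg
Gbp3 (chr3:142559794-142560093, plus strand): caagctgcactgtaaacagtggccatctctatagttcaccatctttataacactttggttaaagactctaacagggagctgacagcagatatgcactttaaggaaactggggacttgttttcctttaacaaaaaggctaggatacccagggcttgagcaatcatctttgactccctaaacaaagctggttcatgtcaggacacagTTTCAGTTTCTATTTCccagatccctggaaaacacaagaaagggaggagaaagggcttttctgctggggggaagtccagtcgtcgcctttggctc
Trim30a (chr7:104446076-104446375, minus strand): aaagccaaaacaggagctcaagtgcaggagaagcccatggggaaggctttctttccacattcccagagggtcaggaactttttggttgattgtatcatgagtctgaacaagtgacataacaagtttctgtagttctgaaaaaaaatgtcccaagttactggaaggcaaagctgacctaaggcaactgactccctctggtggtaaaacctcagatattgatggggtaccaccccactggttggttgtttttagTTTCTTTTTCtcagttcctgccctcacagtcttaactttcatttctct
B2m (chr2:122147437-122147736, plus strand): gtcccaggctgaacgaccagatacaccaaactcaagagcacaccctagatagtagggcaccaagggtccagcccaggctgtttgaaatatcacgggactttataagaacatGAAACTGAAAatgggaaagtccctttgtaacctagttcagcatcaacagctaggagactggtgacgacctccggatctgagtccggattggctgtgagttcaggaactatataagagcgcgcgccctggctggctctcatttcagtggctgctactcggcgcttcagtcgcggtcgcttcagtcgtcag
In Bst2 and Gbp3 a pair of overlapping cores makes a longer run, from base 121 and base 206 of the window. In Gbp3 and Trim30a the core is on the opposite strand and so reads as its reverse complement. Those of Ifih1 and Trim30a lie after the start site, from bases 283 and 253.

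Among genes of antigen presentation 1 rose. B2m, the light chain that every class I molecule needs, measured 89.0, 115 and 124 CPM in controls and 221, 177 and 172 at day 14 (log2 fold change 0.80 ± 0.16, adjusted p = 0.033). It was the 1 gene of 23 in the class I list that rose, and none fell (median 0.16); its call was held without control 3 only (0.86, adjusted p = 0.012) and reached 0.13 without control 1. Nlrc5, the class I transactivator, measured 1.22, 2.70 and 3.45 CPM against 7.71, 3.67 and 6.88 (1.30 ± 0.36, adjusted p = 0.062), and Tap1, a peptide transporter, had an adjusted p of 0.13. None of the 15 class II genes passed in edgeR (5 with p under 0.05 before adjustment, 1 by DESeq2 and 3 by limma-voom). Their median was -0.09, and 2 were called lower without control 3 (5.3% of all genes). A difference between the classes was not tested. H2-Ab1, a class II beta chain, measured 90.1, 96.9 and 90.2 CPM in controls and 79.7, 76.7 and 73.2 at day 14 (adjusted p = 0.16), and Cd74, the invariant chain, 269 ± 5.02 and 218 ± 25.3 CPM (adjusted p = 0.099). Both had been lower at day 7, at 31.2 and 102 CPM, and were higher at day 14 than at day 7 (log2 differences 1.29 and 1.10, adjusted p = 3.8e-06 and 5.3e-06).

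Macrophage genes rose in part. Of 34 tested members 6 rose and none fell, the median was 0.49, and 19 members did not overlap upward. Of all genes 1.13% rose and 12.4% did not overlap upward. Mpeg1, perforin-2 of phagocytes, measured 15.98, 22.6 and 20.8 CPM in controls and 38.0, 36.7 and 34.7 at day 14 (0.88 ± 0.16, adjusted p = 0.016). It kept the call unless control 1 was left out (0.73, adjusted p = 0.080). Ms4a7, a membrane protein of resident macrophages, measured 2.87, 2.56 and 2.60 CPM against 7.19, 6.27 and 6.502 (1.31 ± 0.25, adjusted p = 0.021). The day 14 libraries were tight for both genes and clear of every control.

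Mrc1, the mannose receptor of alternatively activated macrophages, measured 6.59, 7.49 and 5.60 CPM against 12.4, 18.8 and 9.97 (1.07 ± 0.23, adjusted p = 0.031), with library 2 the highest. Laptm5, a lysosomal protein of leukocytes, rose by 0.73 ± 0.14 (adjusted p = 0.025), Ms4a6c by 1.72 ± 0.41 (adjusted p = 0.038) and Mertk, the receptor by which phagocytes take up dying cells, by 0.47 ± 0.11 (adjusted p = 0.035). Stab1, a scavenger receptor, rose by 0.61 ± 0.14 (adjusted p = 0.035) and was with Mrc1 the other of 2 called genes among 14 of the alternatively activated list. Itgb2, the beta chain of leukocyte integrins, rose from 4.29 ± 0.91 to 9.24 ± 2.06 CPM (1.11 ± 0.27, adjusted p = 0.039), and Ptprc, which encodes the pan-leukocyte protein CD45, from 5.52 ± 1.75 to 10.3 ± 1.10 CPM (0.90 ± 0.22, adjusted p = 0.044). Csf1r, the receptor that macrophages need to survive, measured 25.9 ± 3.14 and 28.0 ± 1.45 CPM (0.11 ± 0.15, adjusted p = 0.72). Mrc1 kept its call without control 3 or day 14 library 3, and Ms4a7, Ms4a6c, Laptm5, Mertk, Stab1, Itgb2 and Ptprc without control 3 only, with adjusted p up to 0.21 in the other omissions.

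Summed over the macrophage list, controls 1 to 3 held 796, 799 and 752 CPM and day 14 libraries 1062, 1041 and 952. In bulk RNA more cells of a type and more RNA per cell cannot be told apart. The count of members called was 7 without control 3, 2 without day 14 library 3, 1 without control 2, day 14 library 1 or day 14 library 2, and 0 without control 1. All were higher. Of all genes 6.99% were called higher without control 3, and 0.0316% and 0.0568% without controls 1 and 2. Without day 14 libraries 1, 2 and 3 the shares were 0.336%, 0.152% and 0.114%. Set against day 7, 16 members were higher at day 14 and 1 lower (3.72% and 2.87% of all genes). Mertk was the lower one, at 45.8 CPM at day 7 and 34.0 at day 14 (log2 difference -0.43, adjusted p = 0.022). Lgals3bp, a secreted galectin-binding glycoprotein named after its values were seen, measured 46.6, 44.8 and 55.2 CPM against 110, 81.1 and 83.5 (0.90 ± 0.14, adjusted p = 0.0095) and lost the call only without control 1 or control 2 (adjusted p = 0.078 and 0.072).

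**Figure D3:**
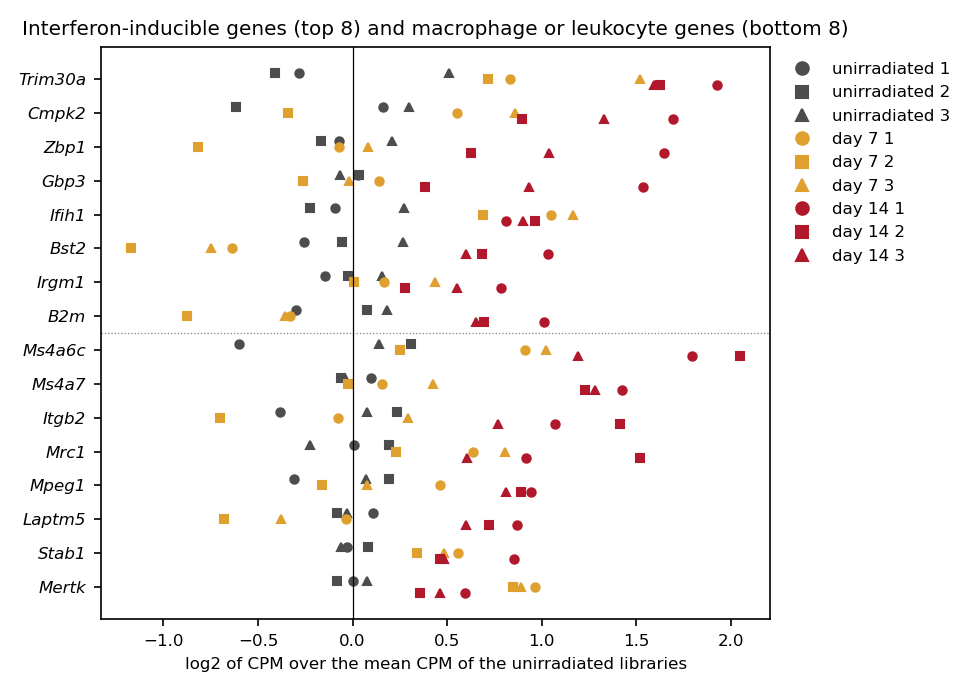
Level of each gene (y axis) in every library, as log2 of its CPM over the mean of the unirradiated libraries (x axis); colours give the group and symbols the library. The day 14 symbols of each gene lie to the right of all unirradiated ones, and for Zbp1, Gbp3 and Irgm1 day 14 library 2 (square) lies nearest to them.

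Cell division genes, which were high at day 7, were not called at day 14. None of the 62 mitosis and cytokinesis genes passed (16 with p under 0.05 before adjustment, 4 by DESeq2 and 1 by limma-voom), although their median log2 fold change was 0.58. The log2 fold change was above 0 in 56, and 12 did not overlap upward (12.4% of all genes) and none downward. Members called higher were 4 without control 3 (6.99% of all genes), 1 without control 2 or day 14 library 2, and none in the other omissions. Mki67, the proliferation marker, measured 1.83, 3.10 and 3.45 CPM in controls and 9.41, 3.61 and 8.45 at day 14 (1.35 ± 0.36, adjusted p = 0.076), after 32.1 CPM at day 7. Racgap1, a cytokinesis factor, measured 0.55, 1.89 and 1.36 CPM against 4.27, 2.34 and 2.71 (1.30 ± 0.36, adjusted p = 0.063). In both genes day 14 library 2 was the lowest of its group. It lay just above the highest control for Mki67, and for Racgap1 it lay above every control and near library 3. Over the list, day 14 libraries 1, 2 and 3 lay 0.61, 0.09 and 0.51 above the control mean. Of the 62 genes 42 were lower at day 14 than at day 7 (2.87% of all genes), among them Mki67 (-2.17, adjusted p = 0.0039) and Ccnb1 (-2.68, adjusted p = 0.0048). Of 56 genes of DNA replication none passed against controls (2 with p under 0.05 before adjustment, 0 by DESeq2 or limma-voom), with a median of 0.07.

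The lower genes included many that encode small proteins of ribosomes and mitochondria. Of 83 tested genes of the cytosolic ribosome 15 fell and none rose (0.632% of all genes fell), with a median log2 fold change of -0.32, and 70 did not overlap downward (10.7% of all genes). Rpl38 measured 221, 196 and 176 CPM in controls and 98.7, 113 and 133 at day 14 (-0.78 ± 0.13, adjusted p = 0.017). Rps21 measured 413, 374 and 310 CPM against 175, 198 and 244 (-0.83 ± 0.15, adjusted p = 0.029). Control 3 was the lowest control and library 3 the highest day 14 library for both. Rps28 fell by 0.73 ± 0.14 (adjusted p = 0.030) and Rpl41 by 0.56 ± 0.11 (adjusted p = 0.021).

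Nuclear genes of the respiratory chain behaved alike: 14 of 80 fell and none rose, with a median of -0.32. In 55 the groups did not overlap downward (10.7% of all genes). Atp5k, a subunit of ATP synthase, measured 32.7, 30.5 and 22.1 CPM in controls and 10.1, 12.4 and 19.3 at day 14 (-1.02 ± 0.24, adjusted p = 0.047). Cox7a1, a cytochrome oxidase subunit, measured 8.54, 7.08 and 5.37 CPM against 2.45, 1.81 and 4.01 (-1.34 ± 0.30, adjusted p = 0.033). Atp5e fell by 0.54 ± 0.11 (adjusted p = 0.030) and Atp5g1 by 0.43 ± 0.09 (adjusted p = 0.032). Of 77 mitochondrial ribosomal genes 2 fell, Mrps21 (-0.50 ± 0.10, adjusted p = 0.030) and Mrpl12 (-0.55 ± 0.13, adjusted p = 0.035), with a median of -0.25. Among the 13 genes that mitochondria encode themselves, mt-Nd5 rose (1134, 1077 and 1419 CPM against 1699, 1894 and 1580, 0.51 ± 0.11, adjusted p = 0.032) and the others did not pass; the median of the 13 was -0.30, and mt-Nd4 was at -0.34 ± 0.10 (adjusted p = 0.071). The calls of mt-Nd5, Mrps21, Mrpl12, Atp5e and Atp5g1 were held in 1 omission, that of control 3, with adjusted p up to 0.15 in the others.

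These lower groups moved together with gene length. Across all tested genes the log2 fold change rose with exonic length (Spearman correlation 0.34 across 15343 genes, which are not independent). The median was -0.18 in the shortest decile and 0.21 in the longest. Called lower genes had a median exonic length of 1768 bases, called higher genes 6679, and genes not called 4098; cytosolic ribosomal genes were at 1770. Control 3 deviated in the same direction: its deviation from the mean of the other 2 controls had a correlation of 0.28 with length. Those of the day 14 libraries from the mean of all 3 controls were 0.29 to 0.31, and those of controls 1 and 2 from the other controls -0.21 and -0.10. Offsets for length and GC content were then added to the fit. They were fitted to each library's own values in these data, without regard to group. They therefore remove any group difference that follows length or GC, whatever its source. With them 146 genes were called, of which 89 were among the 270. Of the genes tested 0.554% were called higher and 0.398% lower. Ribosomal genes called lower were then 4 and respiratory ones 7, with list medians of -0.22 and -0.20, while interferon genes called higher were 6 and macrophage genes 8. The part of RNA integrity in this trend was not tested.

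**Figure D4:**
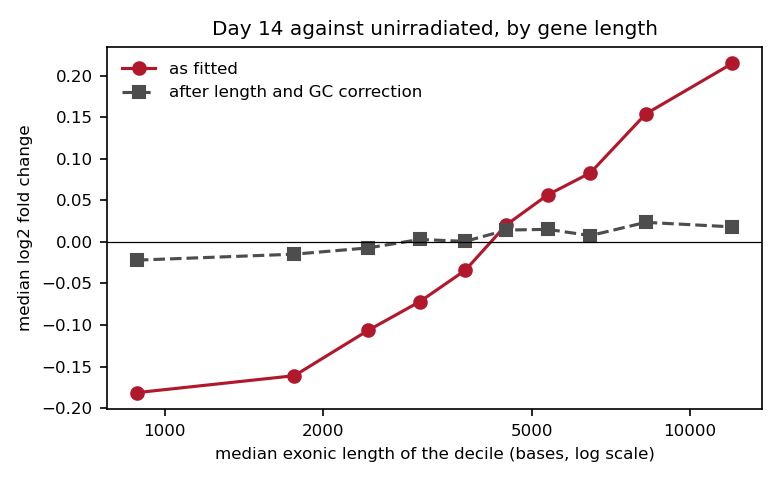
Median log2 fold change of day 14 against unirradiated (y axis) in 10 groups of tested genes ordered by exonic length (x axis, log scale), as fitted (circles) and after the length and GC correction (squares). As fitted the medians run from -0.18 to 0.21. After correction they lie between -0.02 and 0.02, and the offsets were fitted to these same data to remove such a trend.

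Omitting libraries shifted these counts widely. Ribosomal genes called lower were 72 without control 3, 4 without day 14 library 3, 1 without day 14 library 1, and 0 without control 1, control 2 or day 14 library 2. Of all tested genes 5.3% were called lower without control 3, 0.0506% and 0.0379% without controls 1 and 2, and 0.114%, 0.0758% and 0.0825% without day 14 libraries 1, 2 and 3. The corresponding counts for nuclear respiratory genes were 59, 3, 0, 0, 0 and 0. Against day 7 the same lists were higher at day 14: 50 of 83 ribosomal and 15 of 80 respiratory genes were higher and none lower. Over all genes 3.72% were higher at day 14 than at day 7 and 2.87% lower. Of 37 proteasome genes none passed against controls (13 with p under 0.05 before adjustment, 1 by DESeq2 and 6 by limma-voom), with a median of -0.16. Prdx5, a mitochondrial and peroxisomal peroxidase, was the 1 called of 36 antioxidant genes and fell by 0.47 ± 0.12 (adjusted p = 0.044), a call held only without control 3.

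Targets of Atf4, the transcription factor of the amino acid and integrated stress responses, included 3 of 36 that fell (0.632% of all genes fell). None rose, and the median was -0.30. Besides Sesn2 these were Shmt2, the mitochondrial serine hydroxymethyltransferase (113, 99.8 and 115 CPM against 90.6, 72.3 and 63.9, -0.53 ± 0.13, adjusted p = 0.039), and Stc2, stanniocalcin 2 (9.70, 4.45 and 11.4 CPM against 3.45, 4.62 and 3.63, -1.13 ± 0.28, adjusted p = 0.046). Stc2 overlapped between the groups, since control 2 lay below day 14 library 2. It was the single called gene of the 270 that overlapped and was called in only 1 omission, that of control 2 (-1.45, adjusted p = 0.019). Slc7a5, an amino acid transporter, measured 453 ± 59.0 and 328 ± 51.3 CPM (adjusted p = 0.052), and Pck2, the mitochondrial PEP carboxykinase, 425 ± 24.5 and 298 ± 27.2 CPM (adjusted p = 0.059). Against day 7, 10 members were lower at day 14 and none higher (2.87% of all genes were lower). The lower ones included Sesn2 (-1.47, adjusted p = 0.015), Shmt2 (-0.58, adjusted p = 0.012), Pck2 (-0.58, adjusted p = 0.018) and Slc7a5 (-0.47, adjusted p = 0.025). The list's called members numbered 8 lower and 1 higher without control 3 (5.3% and 6.99% of all genes). They were 4 lower without day 14 library 1 (0.114% of all genes). There were 0 without control 1 or day 14 library 3 (0.0506% and 0.0825% of all genes were lower).

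In the endoplasmic reticulum, where secretory proteins fold, 1 of 34 folding genes rose and 1 fell. Derl3, a factor that exports misfolded proteins and is also strong in plasma cells, measured 45.0, 45.5 and 60.3 CPM in controls and 30.4, 31.0 and 31.8 at day 14 (-0.70 ± 0.12, adjusted p = 0.016). The day 14 libraries lay close to each other, and the call was lost only without library 3 of that group (-0.71, adjusted p = 0.058). Dnajc10, a reductase that helps unfold such proteins, rose from 785 ± 70.2 to 1119.6 ± 99.5 CPM (0.51 ± 0.10, adjusted p = 0.021) and kept the call without control 3 or without day 14 library 1. Sec61g, a subunit of the translocation channel, measured 109, 107 and 87.2 CPM against 63.5, 63.6 and 67.8 (-0.64 ± 0.11, adjusted p = 0.016) and was the 1 called of 55 translocation and transport genes.

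Secretory products of the acini were not called at day 14. None of the 23 tested genes passed (4 with p under 0.05 before adjustment, 4 by DESeq2 and 3 by limma-voom), with a median of -0.21. Muc19, the gel-forming mucin of the sublingual gland, measured 46253, 43791 and 38307 CPM in controls and 36583, 34604 and 35921 at day 14 (-0.26 ± 0.09, adjusted p = 0.11). The groups did not overlap, but control 3 was nearer to day 14 than to control 1. Dcpp2, a demilune cell and parotid protein, measured 102574, 92753 and 69356 CPM against 66262, 71111 and 70765 (-0.35 ± 0.11, adjusted p = 0.089), and Dcpp1 had an adjusted p of 0.27; near-identical copies of this family can share reads. Dcpp1 and Dcpp2 were both higher at day 14 than at day 7 (0.55 and 0.43, adjusted p = 0.0064 and 0.025). Bpifa2, parotid secretory protein, measured 11403, 11854 and 6953 CPM against 7852, 6368 and 6269 (-0.56 ± 0.17, adjusted p = 0.10). Without control 3 the list had 5 members called lower (5.3% of all genes), and in the other 5 omissions none.

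Of the acinar regulators, Bhlha15 (Mist1) measured 441 ± 29.1 and 385 ± 45.9 CPM (adjusted p = 0.24) and Spdef, a factor of mucous cells, 764 ± 145 and 683 ± 72.8 CPM (adjusted p = 0.44). Spdef was higher at day 14 than at day 7 (0.46, adjusted p = 0.026). Among 25 genes of mucin-type glycosylation 2 rose, both transferases that start O-glycans: Galnt7 (221, 236 and 299.8 CPM against 352, 479 and 385, 0.68 ± 0.12, adjusted p = 0.017) and Galnt6 (33.1, 30.8 and 29.6 CPM against 33.6, 59.4 and 56.3, 0.68 ± 0.16, adjusted p = 0.049). Day 14 library 1 was near the controls for Galnt6, which was called only without that library (0.89, adjusted p = 0.0062). Galnt7 lost the call without control 1, control 2 or day 14 library 2 (adjusted p = 0.087, 0.090 and 0.060).

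No gene of nerve-driven fluid secretion passed. Of 33 tested none was called (8 with p under 0.05 before adjustment, 4 by DESeq2 and 3 by limma-voom), with a median of 0.10. The groups did not overlap upward in 11 members and downward in 2 (12.4% and 10.7% of all genes). Without control 3, 5 members were called higher and 2 lower (6.99% and 5.3% of all genes), and in the other omissions none. Chrm3, the main muscarinic receptor of salivary acini, measured 63.4, 66.2 and 63.3 CPM in controls and 61.1, 62.0 and 67.3 at day 14 (-0.02 ± 0.09, adjusted p = 0.93). Chrm1 measured 40.3, 37.2 and 29.5 CPM against 33.0, 36.8 and 37.8 (0.01 ± 0.12, adjusted p = 0.98). Both overlapped fully between the groups. Slc12a2, the chloride-loading cotransporter, measured 553 ± 132 and 825 ± 107 CPM (0.58 ± 0.17, adjusted p = 0.086), Aqp5, the apical water channel, 1349 ± 177 and 1197 ± 74.6 CPM (adjusted p = 0.33), and Itpr1 37.6 ± 6.88 and 52.8 ± 3.75 CPM (adjusted p = 0.086). Ano1, the apical chloride channel, was at 101 ± 9.20 and 123 ± 16.6 CPM (adjusted p = 0.12) and lower than at day 7 (-0.49, adjusted p = 0.0078).

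Of 27 duct genes 2 fell, none rose and 12 did not overlap downward (0.632% of all genes fell and 10.7% did not overlap downward). The median log2 fold change was -0.36. Klk1, the tissue kallikrein of striated ducts, measured 2538, 3030 and 4234 CPM in controls and 1530, 1381 and 2058 at day 14 (-0.98 ± 0.19, adjusted p = 0.035). Wfdc2, a secreted duct protein, measured 48.1, 52.5 and 44.1 CPM against 33.1, 24.1 and 31.4 (-0.71 ± 0.12, adjusted p = 0.016). All day 14 values were below all control values for both. Klk1 lost the call without control 2, day 14 library 1 or day 14 library 2 (adjusted p = 0.090, 0.090 and 0.074), and Wfdc2 without control 2 or day 14 library 2 (0.076 and 0.052). Fxyd2, a sodium pump subunit, measured 253 ± 3.11 and 143 ± 43.0 CPM (-0.82 ± 0.20, adjusted p = 0.069), and Ascl3, which marks a duct progenitor, 9.65 ± 3.81 and 5.06 ± 1.45 CPM (adjusted p = 0.078). Cst10, a cystatin, measured 22.01, 22.3 and 22.7 CPM against 11.7, 8.13 and 8.99 (-1.22 ± 0.21, adjusted p = 0.016); it kept the call without control 3 or day 14 library 1. Klk1 is shared with the granular ducts of the neighbouring submandibular gland, whose markers varied among libraries. On the log2(CPM + 0.5) scale their mean deviation was 0.94 in control 3, -0.43 and -0.51 in controls 1 and 2, and -0.83, -0.18 and -0.74 at day 14. Their summed CPM gave another order, with control 3 the lowest control: 11832, 12295 and 7872 in controls 1 to 3 and 8249, 6851 and 6706 at day 14. Their part in the Klk1 result was not tested.

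Few basal, myoepithelial or progenitor genes passed. None of 15 basal and myoepithelial genes passed (5 with p under 0.05 before adjustment, 1 by DESeq2 and 4 by limma-voom). Krt5 measured 55.7 ± 6.86 and 46.9 ± 5.21 CPM (adjusted p = 0.21) and Krt14 57.2 ± 3.02 and 60.6 ± 9.92 CPM (adjusted p = 0.73). Among 30 salivary transcription factors and progenitor genes Lgr4, an R-spondin receptor of Wnt signalling, rose (22.1, 27.7 and 28.5 CPM against 40.0, 39.0 and 38.6, 0.59 ± 0.12, adjusted p = 0.030) and Barx2, a homeobox factor of gland development, fell (43.1, 43.4 and 42.9 CPM against 32.4, 27.1 and 32.1, -0.50 ± 0.12, adjusted p = 0.035). Both calls were held in 1 omission, that of control 3. Sox2, which acinar progenitors use, measured 102 ± 5.72 and 116 ± 3.08 CPM (adjusted p = 0.27), Sox10 67.3 ± 2.68 and 59.2 ± 3.43 CPM (adjusted p = 0.28) and Kit 30.7 ± 2.19 and 33.3 ± 4.90 CPM (adjusted p = 0.63).

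Of the collagens 1 rose. Col4a1, a chain of type IV collagen, measured 79.8, 87.4 and 80.0 CPM in controls and 127, 115 and 118 at day 14 (0.54 ± 0.09, adjusted p = 0.0095), and was called in 5 of the 6 omissions, not without control 1 (0.51, adjusted p = 0.058). It was the 1 called of 34 collagens, whose median was 0.16. The fibrillar collagens Col1a1 and Col3a1 measured 44.3 ± 2.88 and 75.1 ± 11.6 CPM in controls and 56.8 ± 6.90 and 102 ± 18.7 at day 14 (adjusted p = 0.099 and 0.11). Postn, periostin, measured 32.0, 45.3 and 48.9 CPM against 80.3, 76.6 and 55.2 (0.75 ± 0.16, adjusted p = 0.036), with a call held without control 3 or day 14 library 3 only. Lama5, a laminin chain, measured 124 ± 5.42 and 157 ± 8.27 CPM (adjusted p = 0.055), below its day 7 level of 226 CPM (-0.53, adjusted p = 0.0018). None of 25 endothelial genes passed (4 with p under 0.05 before adjustment, 0 by DESeq2 and 1 by limma-voom), and Pecam1 measured 18.3 ± 0.34 and 19.1 ± 2.68 CPM (adjusted p = 0.84).

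Nerve-related genes gave little. Of 24 neurotrophic genes Sema3c, a guidance semaphorin, rose (22.3, 26.1 and 25.9 CPM against 31.2, 34.8 and 37.0, 0.47 ± 0.12, adjusted p = 0.043), a call held only without control 3. Nrtn, neurturin, the ligand of parasympathetic neurons, measured 34.1, 30.5 and 22.97 CPM against 25.7, 24.6 and 23.5 (-0.24 ± 0.14, adjusted p = 0.32). Only 7 of 22 neuronal markers could be tested, none passed (1 with p under 0.05 before adjustment, 0 by DESeq2 or limma-voom), and they were high in control 3: Tubb3 measured 0.43, 0 and 5.15 CPM in controls and 0.12, 0 and 0.60 at day 14, and Vip, a parasympathetic neuropeptide, 1.59, 1.01 and 7.69 CPM against 0.06, 0 and 0.27. Without control 3 Tubb3 was at 0.08 on the log2 scale, while Vip was at -3.51 (adjusted p = 0.037), the 1 marker then called. With all libraries Vip was at -4.88 (adjusted p = 0.11). In day 14 libraries 1, 2 and 3, 3 counts are 0.18, 0.15 and 0.17 CPM before scaling for composition. The day 14 values of Vip thus rest on very few reads, and the size of its fold change is uncertain.

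**Figure D5:**
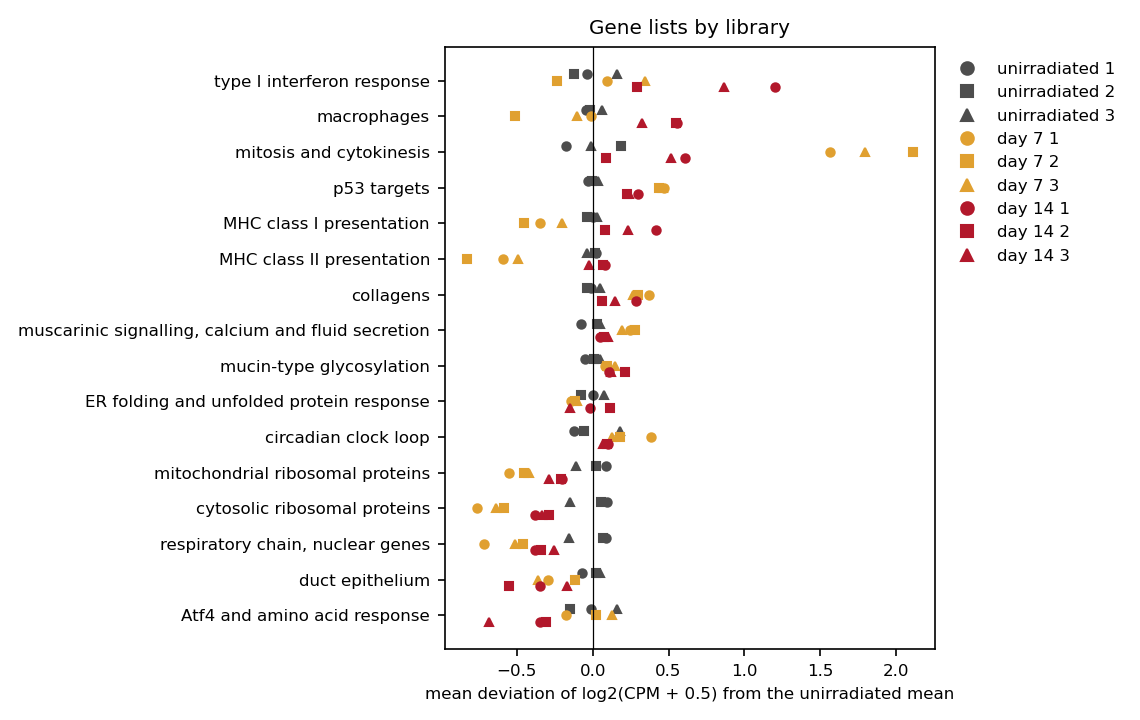
Mean deviation of each gene list's log2(CPM + 0.5) from the unirradiated mean (x axis) for 16 lists (y axis) in each library; colours give the group and symbols the library. For cytosolic ribosomal and nuclear respiratory genes unirradiated library 3 (triangle) lies toward the day 14 libraries, and for interferon genes day 14 library 2 (square) lies nearest to the unirradiated ones.

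Of the clock genes, 1 passed against the controls. Arntl (Bmal1), the activator of the circadian loop, measured 12.1, 13.2 and 11.8 CPM in controls and 8.30, 10.4 and 9.16 at day 14 (-0.41 ± 0.19, adjusted p = 0.21), against a day 7 mean of 1.05 (log2 difference 3.14, adjusted p = 2.9e-07). Dbp, an output factor of the clock, measured 73.9 ± 2.41 CPM in controls, 78.1 ± 12.7 at day 14 and 227 at day 7 (day 14 minus day 7 -1.54, adjusted p = 5.3e-06). Per3 measured 21.9 ± 7.20 and 34.5 ± 7.64 CPM (adjusted p = 0.31) after 140 at day 7. Nfil3, the repressor that opposes Dbp, was at 34.9 ± 12.6 and 18.04 ± 3.199 CPM (adjusted p = 0.091). Cry2, a repressor of the loop, was the 1 called of 16 loop genes and fell below controls (46.8, 46.1 and 54.4 CPM against 36.9, 36.3 and 34.1, -0.46 ± 0.10, adjusted p = 0.033), a call held only without control 3. None of 21 output genes passed (4 with p under 0.05 before adjustment, 1 by DESeq2 and 3 by limma-voom). In RefSeq promoter windows the E-box CACGTG was present in 2 of 12 loop and 6 of 17 output genes, against 8.09% of all genes and 11.3% of tested ones, and GGTCA, the core bound by Ror and Rev-erb receptors, in 8 of 12 and 8 of 17, against 43.6% and 42.4%. The labels do not give the time of day at which glands were taken, so clock phase and treatment cannot be told apart.

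Among the larger changes outside these lists, Myo5a, a myosin that carries vesicles, measured 2.5, 3.24 and 6.62 CPM in controls and 9.52, 9.83 and 9.05 at day 14 (1.19 ± 0.29, adjusted p = 0.047). Control 3 was the highest control, and of the omissions only that of control 3 kept the call. Samd9l, an antiviral protein, measured 3.84, 3.98 and 4.53 CPM against 8.41, 7.81 and 10.3 (1.10 ± 0.21, adjusted p = 0.022).

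The largest falls outside the lists were in genes of low or middle abundance. Kcnk3, a background potassium channel, measured 11.6, 8.09 and 8.99 CPM in controls and 5.02, 3.61 and 4.71 at day 14 (-1.11 ± 0.22, adjusted p = 0.028). Adm2, a peptide of the calcitonin family, measured 37.1, 41.3 and 41.5 CPM against 21.7, 24.5 and 14.8 (-0.97 ± 0.17, adjusted p = 0.017). Tppp3 and Lingo4 fell by 0.93 ± 0.21 and 0.92 ± 0.23 (adjusted p = 0.033 and 0.049). Bcdin3d, an RNA methyltransferase, fell by 0.92 ± 0.20 (adjusted p = 0.033), Foxo6, a forkhead factor, by 0.90 ± 0.21 (adjusted p = 0.035) and Bok, a relative of Bax in apoptosis, by 0.89 ± 0.20 (adjusted p = 0.035). Bcdin3d, Foxo6, Bok and Lingo4 were called in 1 omission, that of control 3, Kcnk3 and Tppp3 in 2, and Adm2 and Samd9l in 3.

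In metabolism, Lpl, lipoprotein lipase, rose (29.3, 29.5 and 26.7 CPM against 38.1, 45.3 and 45.9, 0.60 ± 0.11, adjusted p = 0.021) and was higher than at day 7 (1.05, adjusted p = 3.1e-05). Gpam, which starts triglyceride synthesis, rose from 18.1 ± 4.52 to 30.4 ± 4.93 CPM (0.74 ± 0.17, adjusted p = 0.035). Lpl kept the call without control 3 or day 14 library 1 and Gpam without control 3 only. Lpl is also made by adipocytes, whose markers moved with 1 library: the summed list held 52.8, 61.5 and 48.5 CPM in controls and 59.7, 78.7 and 172 at day 14. The list holds Lpl itself, so these sums are not independent of it. The part of adipocytes in the Lpl result was not tested.

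Genes whose fold change hung most on 1 library were mostly secreted or blood products, and none of them was called. Mucl2, a mucin-like secreted protein, measured 4425, 7841 and 76404 CPM in controls and 200.4, 14195 and 1380 at day 14; its log2 fold change was -2.49 ± 2.04 with all libraries, -0.25 without control 3 and -5.24 without day 14 library 2. Prol1, a proline-rich salivary protein, followed the same libraries, at 469, 726 and 8369 CPM against 5.78, 1723 and 177. So did Klk1b26, which has near-identical paralogs that can share its reads, a kallikrein of the submandibular gland (14.1, 20.5 and 206 CPM against 12.9, 54.8 and 13.5), and Scgb2b26, a secretoglobin (221, 502 and 2686 CPM against 61.9, 441 and 64.8). These genes were highest in control 3, and within day 14 in library 2.

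Day 14 library 3 carried fat genes: Car3, carbonic anhydrase 3, measured 0.85, 2.09 and 0.45 CPM in controls and 0, 4.14 and 42.4 at day 14. Cfd, adipsin, measured 0.79, 3.98 and 0.45 CPM against 0.06, 7.49 and 29.4, and Fabp4 13.5, 17.6 and 10.6 CPM against 8.82, 9.40 and 30.7. Control 2 carried haemoglobin, with Hba-a1 at 49.3, 160.3 and 37.6 CPM in controls and 15.3, 36.1 and 34.6 at day 14, and Hbb-bt at 7.13, 33.4 and 4.92 CPM against 3.86, 5.79 and 4.77. In control 1 the stress genes Ddit4 (193, 44.6 and 56.0 CPM against 35.3, 28.8 and 15.1) and Atf3 (24.7, 5.40 and 9.50 CPM against 6.02, 4.41 and 4.12) and the imprinted H19 (13.6, 2.90 and 8.48 CPM against 5.67, 5.84 and 6.45) were high. Ddit4 is a target of Atf4 like Sesn2, which was also highest in control 1. The Atf4 list as a whole was not: its mean deviation on the log2(CPM + 0.5) scale was -0.01, -0.15 and 0.16 in controls 1, 2 and 3. Shmt2 and Stc2 were highest in control 3.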

How the data were processed

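RNA of sublingual gland sections was sequenced in 9 libraries, and 6 of them (3 controls, 3 at 14 days) were compared. The authors deposited raw counts per gene for each library; per the submitters' processing notes STAR, featureCounts, DESeq2 and mm10 were used, and no versions, strand setting or annotation were given in the sources used here. Of 54532 identifiers 54495 matched GENCODE M21, used for names, length and strand.

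Counts were fitted with edgeR 4.0.16 (TMM scaling, filterByExpr, robust quasi-likelihood F test, two-sided, Benjamini-Hochberg over 15348 genes, 39184 removed) on all 9 libraries with 6 residual degrees of freedom, taking day 14 minus control and, for comparison, day 14 minus day 7, which shares the day 14 libraries. A gene was called at an adjusted p under 0.05. CPM are TMM-scaled; SE is the log2 fold change divided by the square root of F. The fit was tested on simulated counts drawn around the control means. These had no divergent control library and no length trend, so that test does not bear on either. Alternatives used DESeq2 1.42.0 and limma 3.58.1.

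Replicates were not duplicates: within groups, chi-square per degree of freedom over genes was 9.93 to 138. Of the 270 called genes 113 overlap a gene on the other strand. Every library had counts of Xist (1897 to 6163), and counts of 4 Y-linked genes were 0 or 1.

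Genes were named as the 12 largest changes each way among called genes of at least 5 CPM in a group whose libraries did not overlap, up to 6 members of each described list by smallest p, preset key genes, and the 3 genes of at least 5 CPM that moved most when each library was left out. Predicted and immunoglobulin or T cell receptor names were passed over in the first and last. The comparison, lists and named genes were chosen with earlier results of these data known. A gene that the naming rule chose is not reported here.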

Additional observations from a re-analysis of the deposited data

Results flagged for a closer look

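Genes named in the report whose effect against the controls differed between day 14 and day 7, by the test of day 14 minus day 7 (edgeR, adjusted p under 0.05), are given here as log2 differences. Both effects share the controls, and the test shares the day 14 libraries with the main comparison. Lower at day 14 were the division genes Ccnb1 (-2.68), Mki67 (-2.17) and Racgap1 (-1.95), the clock genes Per3 (-2.02), Dbp (-1.54) and Cry2 (-0.99), and the Atf4 targets Sesn2 (-1.47), Shmt2 (-0.58), Pck2 (-0.58) and Slc7a5 (-0.47). So were Ephx1 (-0.69), Lama5 (-0.53), Ano1 (-0.49), Galnt7 (-0.47) and Mertk (-0.43). Sesn2, Shmt2, Pck2 and Slc7a5 had day 7 means of 51.0, 113, 444 and 453 CPM, near their control means of 53.6, 109, 425 and 453. Day 7 was not tested against the controls, and these genes are given because day 14 was below day 7. Of them, Pck2 and Slc7a5 were not called against the controls at day 14.

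Higher at day 14 were Arntl (3.14) and Nfil3 (1.52), the macrophage gene Retnla (2.37), and the interferon and class I genes Bst2 (1.62), Zbp1 (1.38), B2m (1.30), Nlrc5 (1.27) and Gbp3 (1.06). Class II genes H2-Ab1 (1.29) and Cd74 (1.10) were higher too, as were the leukocyte genes Itgb2 (1.21), Ms4a7 (1.11), Laptm5 (1.07), Ptprc (0.94) and Mpeg1 (0.73). Lpl (1.05), Samd9l (0.91), Lgals3bp (0.75), Dcpp1 (0.55), Spdef (0.46), Dcpp2 (0.43), Mrps21 (0.36) and Atp5g1 (0.36) completed them. Retnla measured 13.7 ± 1.48 CPM in controls, 2.35 at day 7 and 12.1 ± 4.74 at day 14. Mpeg1, Ptprc, Itgb2 and Ms4a7 had day 7 means of 21.95, 5.40, 3.99 and 3.07 CPM against control means of 19.8, 5.52, 4.29 and 2.68.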

How the results depend on the processing

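Genes called between day 14 and control numbered 270 and became 1300 with no filter on low counts, 1042 with the DESeq2 Wald test, 1678 with limma-voom with sample weights, 157 with only the 6 libraries compared and 146 with the length and GC correction. They numbered 11 at an adjusted p under 0.01 and 35 with a log2 change of at least 1. DESeq2 size factors, scaling without the 20 most abundant genes and a minimum of 1 CPM in 3 libraries gave 309, 311 and 272. Leaving out 1 library gave 13 to 1937, while at an unadjusted p under 0.05 it gave 2126 to 4357, against 3271 with all libraries. Between day 14 and day 7, 1011 genes were called, 1874 with limma-voom, 264 at an adjusted p under 0.01, 212 with a log2 change of at least 1, and 330 to 636 without 1 library. The causes of these shifts were not tested.

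Replicate numbers did not pair the libraries: deviations of same-numbered libraries had correlations of -0.11 to 0.04. With the replicate block 113 genes were called against control, and 93 with the length and GC correction as well; against day 7 they were 746 and 835.

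All 270 called genes kept their direction in each fit that tested them. This is no separate support, since in 269 of them the day 14 and control values did not overlap. Among named genes that were not called, the direction turned under the length and GC correction for Aqp5 (0.029), Spdef (0.048) and Kit (-0.0043), and with the replicate block added for Aqp5 (0.028), Spdef (0.050), Kit (-0.0079) and Fabp4 (-0.074). Under limma-voom it turned for Mdm2 (0.071), Chrm1 (-0.044), Fabp4 (-0.16), H19 (0.38), Car3 (-0.30), Cfd (-0.19) and Tubb3 (0.64). Chrm1 was at -0.014 under DESeq2, -0.014 with DESeq2 size factors and -0.012 with scaling without the 20 most abundant genes. Over the omissions of 1 library, log2 fold changes ran from -5.14 to 0.057 for Prol1, -2.62 to 0.62 for Klk1b26, -4.90 to 0.078 for Tubb3, -0.91 to 0.048 for H19, -0.60 to 0.53 for Fabp4, -0.56 to 0.028 for Retnla, -0.15 to 0.088 for Chrm1, -0.062 to 0.0082 for Chrm3, -0.13 to 0.0083 for Mdm2, -0.057 to 0.18 for Dbp, -0.050 to 0.16 for Krt14 and -0.061 to 0.12 for Pecam1.

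There were 3 libraries a group, with a biological coefficient of variation of 16.1%, and a gene that was not called is not shown to be unchanged.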

Other observations

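Other lists at day 14 held few calls. Of 29 tested genes of senescence and its secreted factors only Cdkn1a rose, and none fell (median log2 fold change 0.10). Of 16 plasma cell genes only Derl3 fell; the median was -0.08 and turned with single libraries, from -0.51 without day 14 library 1 to 0.15 without control 3. In 23 genes of Notch signalling, 31 of heat shock and cold response, 24 immediate early genes and 25 of sterol synthesis edgeR called none; at an unadjusted p under 0.05 there were 6, 7, 5 and 4, DESeq2 called 3, 4, 1 and 0, and limma-voom 3, 2, 1 and 1. The Notch median was 0.22. Sterol synthesis genes, with a median of 0.03 against controls, held 8 members lower at day 14 than at day 7 and none higher (2.87% of all genes were lower). Pltp, a lipid transfer protein, measured 14.5 ± 2.53 CPM in controls and 21.1 ± 4.12 at day 14 (adjusted p = 0.077).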
